A study of Mus musculus with 2 samples.

Results

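The Myc, Max and Mxd network was described here through 10 genes, Myc, Mycn, Bmyc, Max, Mnt, Mxd1, Mxd4, Mxi1, Mlx and Mga, taken by symbol from the 31056 rows of each count matrix, and all 10 were found. The cells were sorted as CD4+ CD25+ T cells, whether YFP+ or YFP-, from healthy females of genotype Mycfl/flFoxp3Cre/WT, 1 library from lymph node and 1 from spleen. Every animal thus carried the same alleles. Foxp3, the transcription factor that defines regulatory T (Treg) cells, drives the Cre, so only cells that use or have used Foxp3 can lose Myc, and per the study's title WT and KO Treg cells live in the same animal. The sources used here do not give the age or number of the animals, the YFP status of each cell or the Myc exons flanked by loxP sites. A Myc UMI (a counted transcript molecule, read at its 3' end) therefore does not say by itself whether a cell's Myc gene was cut. Cells were grouped by whether they had at least 1 UMI of Foxp3, Klrg1, Tnfrsf9, Il2ra, Ly6c1 or ICRE, a feature added to the gene table. ICRE was taken as a candidate tag of the Cre allele, from its name alone. Features named EYFP and CRE are also in the gene table and were not used to group cells.

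MYC pairs with MAX through a basic helix-loop-helix leucine zipper, and the pair binds E-box DNA and raises genes for ribosome building, nucleotide and polyamine synthesis and growth. MXD1, MXD4, MXI1 and MNT pair with the same MAX, sit on the same sites and bring in SIN3 corepressors, while MGA ties MAX to a Polycomb-type repressor complex. MLX takes some of these partners and also the glucose sensors MondoA and ChREBP. Bmyc, a rodent gene, encodes a protein like the amino-terminal part of MYC without its DNA-binding end, and MYCN is the close relative of MYC found mainly in embryonic and neural tissue. In T cells Myc is known to be switched on by antigen receptor and IL-2 signals.

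E-boxes, the letters that the network itself reads, were looked for in the RefSeq promoters of the members (GRCm38.p6, 250 bases before to 50 after the start, both strands). An entry was found for 9 of 10 members, all but Myc, and 4 of the 9, Max, Mlx, Mnt and Mxd4, hold CACGTG, against 8.09% of 27025 genes with an entry (7.15% of 32851 promoters). The E-box starts at -3 relative to the start in Max, at -40 in Mlx, at -123 in Mnt and at -219 in Mxd4. Neither the STAT motif TTCNNNGAA nor the AP-1 motif TGANTCA is in any promoter of these 9 genes, against 9.55% and 8.97% of genes with an entry. At such shares, 9 genes are too few for this absence to be read as a difference. The promoters of Max, the shared partner, of Mxd4, the most counted repressor, and of Bmyc, counted about as often as Mxd4, are shown with the E-box in capitals, at chr12:76962199-76962498 (minus strand), chr5:34187661-34187960 (minus strand) and chr2:25706629-25706928 (plus strand). These matches describe letters only.
Max: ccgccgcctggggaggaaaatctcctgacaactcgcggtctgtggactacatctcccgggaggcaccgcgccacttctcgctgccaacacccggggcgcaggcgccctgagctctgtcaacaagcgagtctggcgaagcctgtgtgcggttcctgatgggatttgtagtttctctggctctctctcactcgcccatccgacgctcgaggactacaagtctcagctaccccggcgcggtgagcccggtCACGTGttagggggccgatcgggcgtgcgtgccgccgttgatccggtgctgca
Mxd4: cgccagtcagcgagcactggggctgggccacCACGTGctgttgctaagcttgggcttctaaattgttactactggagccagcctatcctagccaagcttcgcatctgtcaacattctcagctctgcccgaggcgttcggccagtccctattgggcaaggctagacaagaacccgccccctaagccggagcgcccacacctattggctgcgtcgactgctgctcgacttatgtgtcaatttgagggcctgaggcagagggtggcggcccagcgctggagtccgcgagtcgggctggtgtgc
Bmyc: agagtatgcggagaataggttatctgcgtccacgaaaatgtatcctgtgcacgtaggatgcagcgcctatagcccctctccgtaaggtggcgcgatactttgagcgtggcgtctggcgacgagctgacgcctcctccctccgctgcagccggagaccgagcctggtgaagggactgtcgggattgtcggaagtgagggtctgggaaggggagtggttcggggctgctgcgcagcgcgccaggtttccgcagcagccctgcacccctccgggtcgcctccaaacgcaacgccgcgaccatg

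After filtering, 4820 lymph node and 6543 spleen cells remained, with a median of 2031 and 1935 UMIs per cell and 13053739 and 16641089 UMIs in all, and 53 barcodes occur in both libraries. At least 1 CD4 T marker UMI was found in 98.7% of cells from lymph node and 99.0% from spleen, and at least 1 Treg marker UMI in 86.4% and 83.5%. At least 2 UMIs of a marker set of another type (B, CD8 T, NK, myeloid or erythroid) were found in 704 cells of each library. Myeloid markers gave the largest sets, 342 and 536 cells, and erythroid markers gave 248 and 4. At least 2 UMIs of B cell markers were found in 141 and 133 cells. Of these, 19.1% and 18.8% had a Foxp3 UMI, near the 20.9% and 18.9% of all cells, at a median depth of 3376 and 2542 UMIs. With each cell thinned to 1200 UMIs the shares were 7.14% and 4.65% of B-marker cells, against 11.3% and 10.1% of all cells. A Foxp3 UMI was thus also found in cells with B cell markers, so it was not taken by itself to mark a Treg cell. Doublets were not called, and whether B-marker cells with Foxp3 were doublets that hold a Foxp3-expressing cell was not tested. For ICRE the unthinned shares were 6.38% and 2.26% of B-marker cells, against 7.86% and 8.39% of all cells, and thinned they were 2.14% and 0.775%, against 5.78% and 5.97%. Erythroid marker UMIs summed to 326.0 in lymph node, scaled to a total of 1000000 UMIs (CPM), and 0.961 CPM in spleen, where 1 of the 4 genes was at 0, and their part in the tissue values was not tested. Each tissue is 1 library, so no p-value was computed. Intervals are exact 95% intervals for counting error only, and a difference between tissues cannot be told apart from a difference between libraries.

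Bmyc and Mxd4 were the most counted members in both tissues. Bmyc had 157.5 CPM in lymph node (2056 UMIs) and 144.4 CPM in spleen (2403 UMIs), and Mxd4 had 155.2 CPM (2026 UMIs) and 156.9 CPM (2611 UMIs). Max followed at 90.8 CPM (1185 UMIs) in lymph node and 91.5 CPM (1522 UMIs) in spleen. These are levels of 3' tags, 1 per captured molecule and not divided by length, so the order between genes also holds differences in capture. Mlx came next, at 51.2 and 46.1 CPM, then Mga and Myc, which swapped places between the tissues. Mga had 35.4 and 33.4 CPM. Myc itself had 30.9 CPM in lymph node (interval 28.0 to 34.1, 404 UMIs) and 37.9 CPM in spleen (630 UMIs). Mxd1 had 20.4 and 18.03 CPM, Mxi1 14.0 and 10.9 CPM, and Mnt 10.6 and 9.31 CPM. Mycn was close to undetected, with 0 UMIs among 4820 lymph node cells, which allows a share of up to 0.0622% of cells with a UMI, and 4 UMIs in spleen. Neighbours in this order whose intervals overlap are Bmyc and Mxd4 in lymph node, and Mga with Myc and Mxi1 with Mnt in both tissues.

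**Figure D1:**
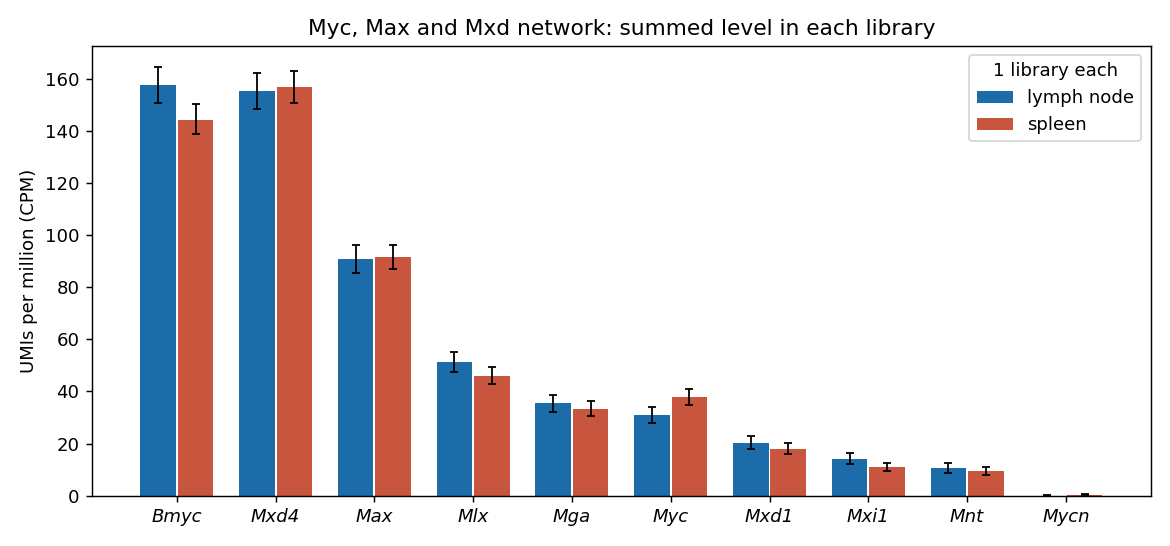
Summed level of each member in CPM, lymph node left of spleen, with exact Poisson 95% intervals from 1 library each. Bmyc and Mxd4 stand near 150 in both libraries, while Myc is at 30.9 in lymph node and 37.9 in spleen.

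Between tissues, 0 of 9 members counted differed by at least 1.5-fold, where 5.13% of 11243 genes were higher in lymph node by that fold and 3.91% were lower. Myc was 0.818 times as high in lymph node as in spleen (0.720 to 0.928). Mxi1 went the other way at 1.29 times (1.04 to 1.59), and Max was level at 0.993 (0.919 to 1.07). A list of 41 MYC targets, genes of ribosome building, nucleotide synthesis and growth, had a median log2 ratio of -0.16 in lymph node over spleen, beside 0.00 for all genes, and 38 of the 41 were on the lower side in lymph node, with 0 past 1.5-fold. Among those named were Slc7a5, an amino acid transporter, at 0.736 times, and Cad, which starts pyrimidine synthesis, at 0.719 times. Outside the members, Mxd3, a repressor seen mainly in dividing cells, was 2.74 times as high in lymph node (10.0 against 3.67 CPM), and the summed cycling markers were at 309.3 CPM in lymph node and 220.5 CPM in spleen.

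Myc was lower in cells with an ICRE UMI than in cells without one, in both tissues. In lymph node, 379 cells with ICRE held 7 Myc UMIs, or 9.59 CPM, against 32.2 CPM in 4441 cells without, a ratio of 0.298 (0.119 to 0.619). In spleen, 549 cells with ICRE held 22 Myc UMIs, or 20.1 CPM, against 39.1 CPM in 5994 cells without, a ratio of 0.514 (0.320 to 0.786). Both libraries thus had less Myc RNA on the ICRE side. Myc was the member past 1.5-fold in both libraries among the 8 counted here, where 2.81% of 6148 genes were lower by that fold in both and 1.59% higher. Its partner Max had 83.6 against 91.2 CPM in lymph node, with 115.2 against 89.8 CPM in spleen, ratios of 0.916 and 1.28. Mxd4 was at 0.904 and 0.928 times. Mxd1, a repressor tied to cell differentiation, was at 1.75 times in lymph node (1.11 to 2.65) and 1.24 times in spleen (0.779 to 1.88). Bmyc was at 1.33 and 1.14 times.

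The difference was larger when cells with ICRE and no Foxp3 UMI were set against cells with Foxp3 and no ICRE UMI. In lymph node, 354 ICRE-only cells held 3 Myc UMIs, 4.64 CPM, against 140 UMIs and 40.0 CPM in 982 Foxp3-only cells, a ratio of 0.116 (0.0236 to 0.346). In spleen, 505 ICRE-only cells held 16 Myc UMIs, 17.0 CPM, against 218 UMIs and 49.5 CPM in 1195 Foxp3-only cells, a ratio of 0.343 (0.192 to 0.569). The spleen interval overlaps the lymph node one, and the difference between the tissues was not tested. Of 7 members counted, Myc alone was past 1.5-fold in both libraries, beside 5.46% of 5792 genes lower and 5.02% higher. Max was at 0.972 and 1.45 times, Mga at 1.28 and 1.44 times, Bmyc at 1.23 and 1.33 times, and Mxd1 at 1.999 and 1.43 times. In lymph node, Bmyc was on the other side of 1 with gates at 2 UMIs, at 0.725 times, and Mga in cells of at least 1000 genes and at most 5% mitochondrial UMIs, at 0.766 times. ICRE-only cells had a median of 1605.5 UMIs in lymph node and 1635 in spleen, against 2859.5 and 2941 in Foxp3-only cells. Summed cycling markers were at 57.2 and 25.5 CPM in ICRE-only cells, against 530.7 and 489.8 CPM in Foxp3-only cells, and without cells that had a Mki67 or Top2a UMI the Myc ratio was 0.111 and 0.268. Over the settings that gave a value, which thinning to 1200 UMIs did not in lymph node, the lymph node ratio ran from 0.0547 to 0.255, and the spleen ratio from 0.144 to 0.449. Il2ra, the IL-2 receptor alpha chain sorted as CD25, was higher in ICRE-only cells, so the low Myc level did not come with low Il2ra. Its level was 268.9 against 133.0 CPM in lymph node, with 307.8 against 188.3 CPM in spleen. These cells differed in other gate genes too. Klrg1 was at 0.0564 times in lymph node and 0.0150 times in spleen, on 3 and 1 UMIs in ICRE-only cells. Ly6c1 was at 3.42 and 2.26 times, and Tnfrsf9 at 1.32 and 1.10 times. Whether these differences have a part in the Myc ratio was not tested.

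**Figure D2:**
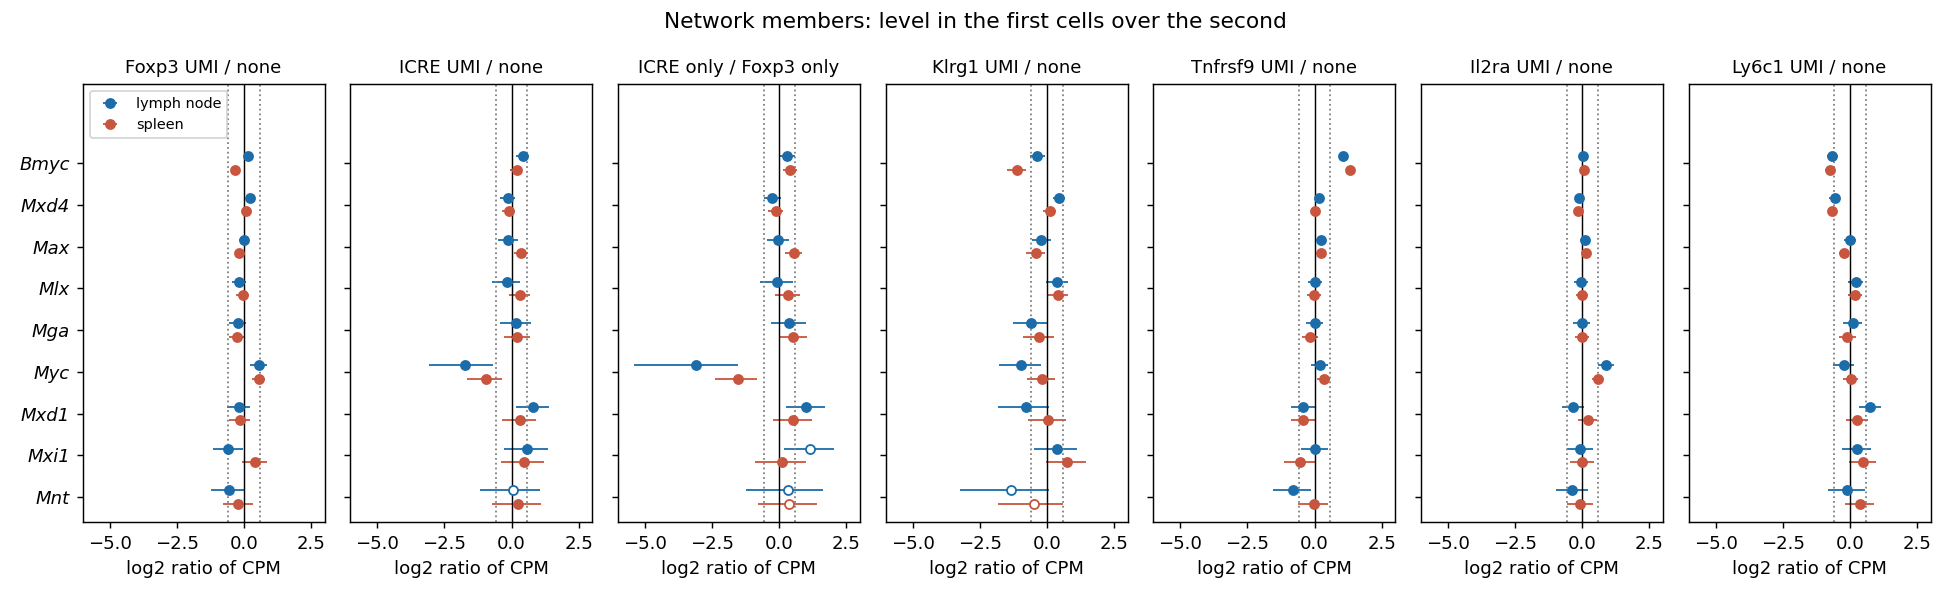
Log2 ratio of CPM for 9 members in each contrast, first-named cells over second, with exact 95% intervals. Filled points had at least 10 expected UMIs in the smaller group, open points fewer, and dotted lines mark 1.5-fold. Myc lies left of the lines in both ICRE panels, and Bmyc lies right of them for Tnfrsf9 and left of them for Ly6c1.

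The summed repressors were level where Myc was low. Mxd1, Mxd4, Mxi1 and Mnt together gave 46.7 UMIs per Myc UMI in lymph node ICRE-only cells (15.6 to 229.0), against 5.30 (4.42 to 6.40) in Foxp3-only cells. In spleen the values were 11.7 (7.01 to 20.9) and 4.08 (3.51 to 4.75). The summed level of the 4 repressors was 216.3 and 198.5 CPM in ICRE-only cells of lymph node and spleen, against 211.8 and 202.0 CPM in Foxp3-only cells. Over whole libraries the 4 repressors gave 6.47 UMIs per Myc UMI in lymph node and 5.15 in spleen. Mxd4 held most of their sum, 155.2 of 200.2 CPM in lymph node and 156.9 of 195.1 CPM in spleen. In ICRE-only over Foxp3-only cells Mxd4 was at 0.837 and 0.914 times and Mxd1 at 1.999 and 1.43 times. A level sum thus does not mean that each repressor was level.

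Genes downstream of MYC were on the lower side in ICRE cells. Of 36 MYC targets counted, 4 were at least 1.5-fold lower in both libraries with ICRE (Odc1, Srm, Pa2g4 and Gnl3), beside 2.81% of all genes. The list's median log2 ratio was -0.35 in lymph node and -0.25 in spleen, beside 0.07 and 0.08 for all genes. In ICRE-only against Foxp3-only cells, 9 of 36 were lower in both, beside 5.46% of all genes, with medians of -0.34 and -0.48 beside 0.08 and 0.08. Pa2g4, a growth-linked ribosome factor, had 49.4 against 129.6 CPM in lymph node, with 81.7 against 162.4 CPM in spleen. Srm, which makes the polyamine spermidine, had 18.5 against 41.4 CPM and 20.2 against 46.8 CPM, and Odc1, the first enzyme of that pathway, had 30.9 against 65.4 CPM and 30.8 against 58.6 CPM. Txnip, a target of MLX with MondoA that restrains glucose uptake, went the other way, at 649.0 against 286.9 CPM in lymph node, with 657.0 against 311.7 CPM in spleen. These counts were smaller at matched depth. With the second cells weighted to the same UMIs per cell, 0 of 36 targets were past the fold for ICRE and 1 of 36 for ICRE-only, with medians of -0.23 and -0.05 for ICRE and -0.16 and -0.06 for ICRE-only. Of all genes, 1.30% and 3.76% were then lower past the fold in these contrasts. Without cells with a Mki67 or Top2a UMI the counts were 2 for ICRE and 5 for ICRE-only, beside 2.08% and 3.87% of all genes. Without cells with markers of other types they were 1 and 6, beside 2.57% and 4.54%. Without ribosomal and mitochondrial genes in the scaling they were 9 and 12, beside 3.68% and 7.06%. Ribosomal and mitochondrial genes took 31.8% and 31.1% of UMIs in ICRE-only cells, against 36.7% and 35.97% in Foxp3-only cells. Leaving them out moves all log2 ratios by -0.11 in each library.

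Cells with a Foxp3 UMI had more Myc than cells without, though under 1.5-fold. In lymph node the levels were 40.2 against 27.5 CPM, a ratio of 1.46 (1.18 to 1.80), and in spleen 49.2 against 33.6 CPM, a ratio of 1.46 (1.24 to 1.73). Of 9 members counted, 0 were past the fold in both libraries, beside 2.74% of 9492 genes higher and 1.9% lower. Cells with Foxp3 were deeper, with a median of 2849 and 2940 UMIs against 1846 and 1793. The ratio was 1.20 and 1.10 among cells with at least 1000 genes and at most 5% mitochondrial UMIs, and 2.17 and 2.14 when each cell was thinned to 1200 UMIs. Mxd4 was at 1.17 and 1.05 times, Bmyc at 1.10 and 0.803 times, and Mxi1 at 0.669 and 1.32 times, so the last pair of members took opposite directions in the tissues. MYC targets had medians of -0.09 in lymph node and 0.18 in spleen, with 0 of 41 past the fold. Aurka, a kinase that stabilises MYC proteins and acts in mitosis, was at 2.43 and 2.91 times, and the summed cycling markers were at 519.0 and 484.3 CPM with Foxp3, against 229.9 and 121.2 CPM without.

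Cells with an Il2ra UMI had more Myc in both tissues. Myc had 45.9 CPM in lymph node cells with an Il2ra UMI, against 24.9 CPM without, a ratio of 1.84 (1.504 to 2.25). In spleen it had 48.3 against 32.2 CPM, a ratio of 1.501 (1.28 to 1.76), which was 1.22 when the gate was set on thinned UMIs. It was the 1 of 9 members past the fold in both, where 0.655% of 9622 genes were higher and 0.488% lower. The level was graded: in lymph node cells with 0, 1, 2 and 3 or more Il2ra UMIs, Myc had 24.9, 40.1, 51.7 and 71.7 CPM. In spleen cells it had 32.2, 38.4, 57.7 and 76.6 CPM over the same classes, so each class stood above the one before in both tissues. Intervals of neighbouring classes overlap, except between 0 and 1 Il2ra UMIs in lymph node, while those of the lowest and top classes are apart in both tissues. The top lymph node class holds 26 Myc UMIs in 97 cells. Median depth also rose from the lowest to the top class, from 1977.5 to 2685 UMIs in lymph node and from 1848.5 to 2789 in spleen. Max had 89.2, 92.1, 97.7 and 104.8 CPM in lymph node and 88.1, 92.5, 105.6 and 108.1 CPM in spleen, also in rising order but with overlapping intervals. Mxd4 ran slightly the other way, at 129.6 CPM in the top lymph node class against 158.9 CPM with no Il2ra UMI. In spleen it was at 134.3 against 163.4 CPM, and these intervals overlap in both tissues. The repressors gave 4.05 UMIs per Myc UMI with Il2ra against 8.28 without in lymph node, and 3.82 against 6.25 in spleen. Of 41 MYC targets, 33 were higher on the Il2ra side in both libraries but 0 were past 1.5-fold, with medians of 0.18 and 0.14 beside 0.01 and -0.00 for all genes. Cycling markers summed to 425.2 and 298.3 CPM with Il2ra, against 262.2 and 178.0 CPM without, and without Mki67 or Top2a cells the Myc ratio was 1.82 and 1.59.

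**Figure D3:**
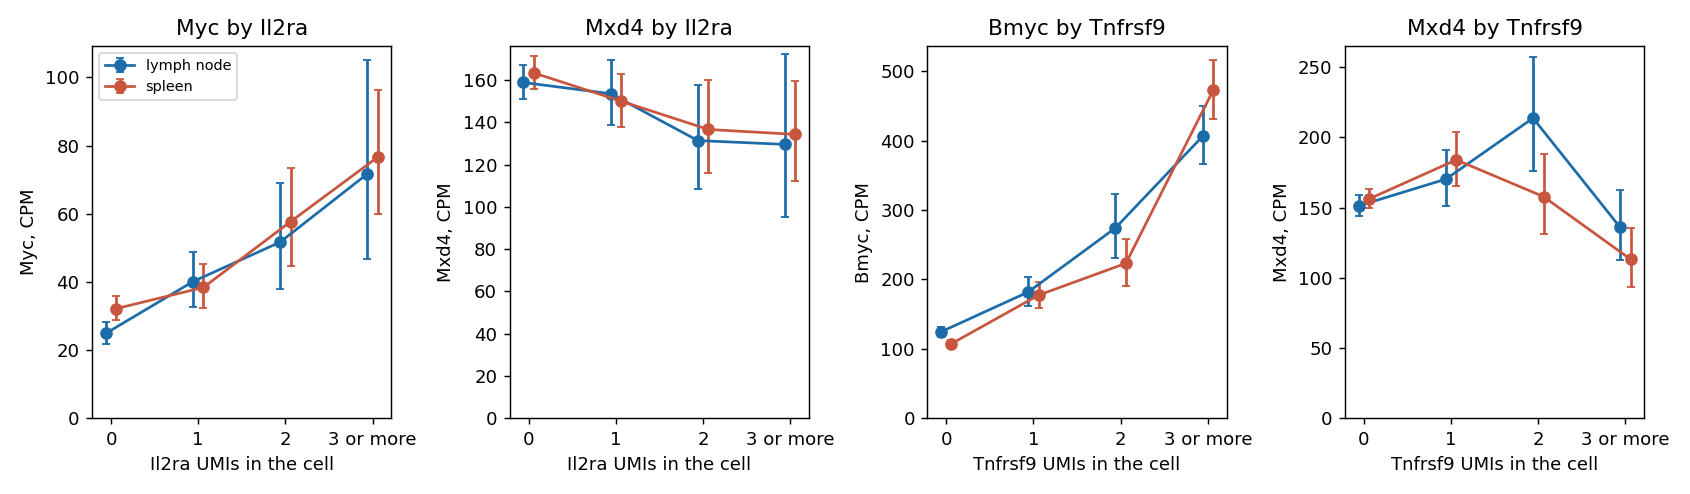
Level of Myc and Mxd4 over cells with 0, 1, 2 and 3 or more Il2ra UMIs, and of Bmyc and Mxd4 over the same classes of Tnfrsf9, in CPM with exact Poisson 95% intervals. Myc reaches 71.7 and 76.6 in the top Il2ra class and Bmyc 406.4 and 472.4 in the top Tnfrsf9 class of lymph node and spleen. Mxd4 in the top Il2ra class is at 129.6 and 134.3, below the class with no Il2ra UMI but with overlapping intervals. In the top Tnfrsf9 class Mxd4 is at 135.8 and 113.1, below the class with no Tnfrsf9 UMI, with overlapping intervals in lymph node. By Tnfrsf9 it is highest in between, at 213.7 with 2 UMIs in lymph node and 184.0 with 1 UMI in spleen.

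Myc was on the higher side with Il2ra in ICRE-only, Foxp3-only and neither cells, the 3 classes compared. Among Foxp3-only cells Myc had 53.7 CPM with Il2ra against 32.02 CPM without in lymph node, while spleen had 57.2 against 42.8 CPM, with overlapping intervals in spleen. Among cells with neither UMI it had 44.0 against 24.0 CPM and 45.6 against 30.3 CPM. Among ICRE-only cells the counts were 2 against 1 UMIs in lymph node and 8 against 8 UMIs in spleen, levels of 9.51 against 2.29 CPM and 21.9 against 13.9 CPM whose intervals overlap. ICRE-only cells with Il2ra were still on the lower side of Foxp3-only cells without it in both tissues, with overlapping intervals.

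Tnfrsf9 (4-1BB, a receptor put on activated T cells) went with higher Bmyc. Bmyc had 261.8 CPM in lymph node cells with a Tnfrsf9 UMI, against 124.5 CPM without, a ratio of 2.10 (1.92 to 2.30). In spleen it had 267.6 against 107.5 CPM, a ratio of 2.49 (2.30 to 2.70). Over 0, 1, 2 and 3 or more Tnfrsf9 UMIs, Bmyc had 124.5, 181.9, 274.2 and 406.4 CPM in lymph node. In spleen it had 107.5, 177.5, 223.2 and 472.4 CPM. It was the 1 of 9 members past the fold in both, with 6.19% of 9280 genes higher and 2.11% lower. Myc was at 1.14 times (0.905 to 1.43) in lymph node and 1.26 times (1.05 to 1.51) in spleen, Max at 1.19 and 1.18 times, and Mxd4 at 1.11 and 1.02 times. Mxd1 was at 0.750 times in lymph node and 0.749 times in spleen, and Mnt at 0.568 and 0.973 times.

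The Bmyc difference was seen in each of the 3 classes compared, ICRE-only, Foxp3-only and neither, and cells with both UMIs were not compared. In ICRE-only cells Bmyc had 469.7 CPM with Tnfrsf9 against 150.3 CPM without in lymph node, while spleen had 415.1 against 106.0 CPM. In Foxp3-only cells the levels were 249.1 against 132.8 CPM and 181.0 against 92.7 CPM. In cells with neither they were 259.2 against 118.4 CPM and 310.4 against 112.3 CPM. The intervals with and without Tnfrsf9 did not overlap in any of these 6 comparisons. Among cells with Tnfrsf9, Bmyc was higher in ICRE-only than in Foxp3-only cells in both tissues, also with intervals apart.

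**Figure D4:**
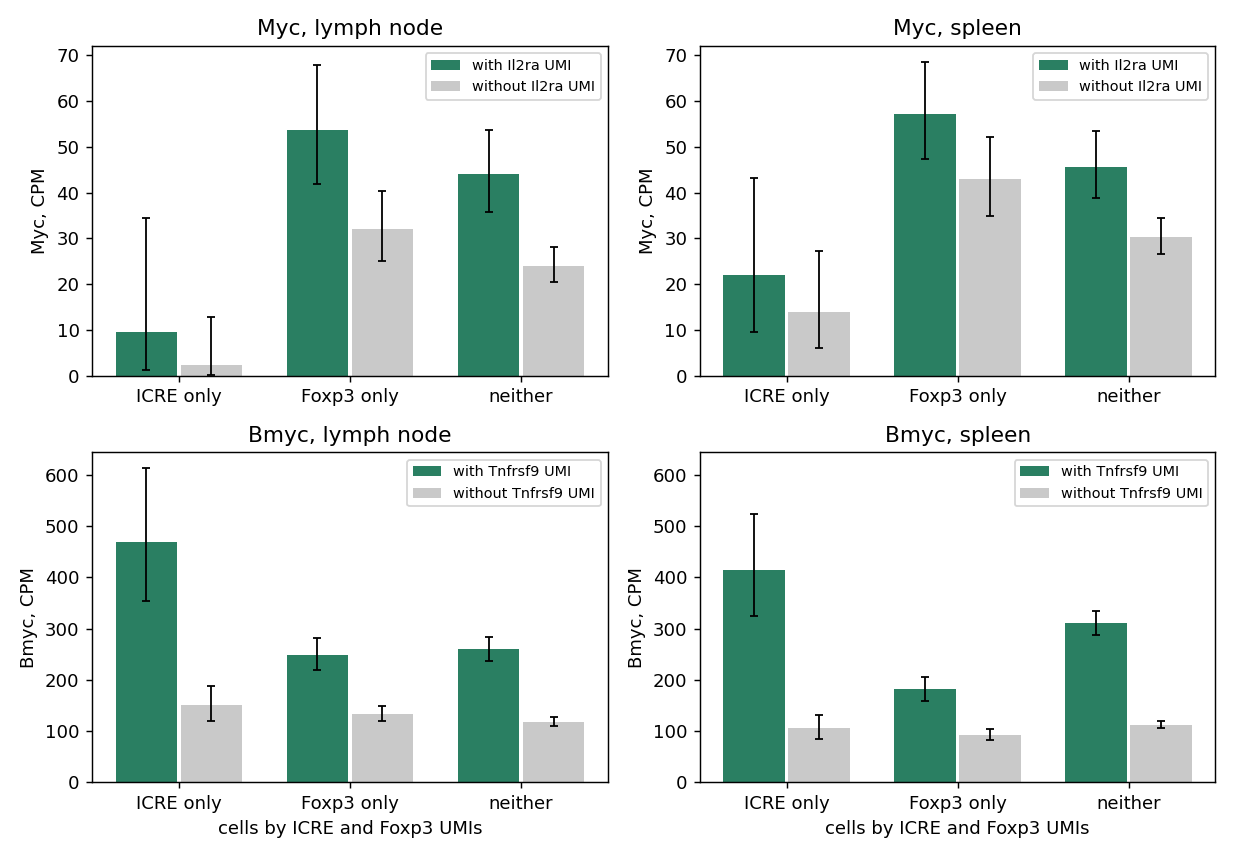
Level of Myc with and without an Il2ra UMI (top) and of Bmyc with and without a Tnfrsf9 UMI (bottom) in ICRE-only, Foxp3-only and neither cells of each library, in CPM with exact Poisson 95% intervals. Myc is lowest in ICRE-only cells on both sides of the Il2ra gate, and Bmyc with Tnfrsf9 is highest there, at 469.7 in lymph node and 415.1 in spleen.

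MYC targets were higher in Tnfrsf9 cells, where Myc RNA differed by under 1.5-fold, though by 1.57 and 1.53 times with the gate at 2 UMIs. Of 41 targets, 27 were at least 1.5-fold higher in both libraries, beside 6.19% of all genes. Their median log2 ratios were 0.68 in lymph node and 0.77 in spleen, beside 0.07 and 0.09 for all genes. Odc1 had 106.8 against 38.4 CPM in lymph node, with 90.2 against 32.1 CPM in spleen, Srm had 72.4 against 26.6 CPM and 84.4 against 30.9 CPM, and Apex1, a DNA repair enzyme, had 62.2 against 25.2 CPM and 78.4 against 32.9 CPM. Txnip was at 0.525 and 0.511 times, while Arrdc4, another target of MLX with MondoA, was at 1.80 and 1.32 times. Cdkn1a, a cell cycle inhibitor that MYC represses, was at 2.02 and 1.52 times. With cells weighted to the same UMIs per cell, 11 of 41 targets were past the fold, with medians of 0.51 and 0.48, beside 3.06% of all genes. Without cells with a Mki67 or Top2a UMI 16 were, beside 4.43% of all genes, and without cells with markers of other types 9 were, beside 4.22%. Cycling markers summed to 475.4 and 390.6 CPM with Tnfrsf9, against 256.8 and 169.6 CPM without, and B cell markers to 63.1 and 31.8 CPM, against 188.0 and 138.9 CPM. Tfdp1, a partner of E2F factors and of the MGA complex, was at 2.04 and 2.07 times, and Rbbp7, a histone-binding subunit of the SIN3 complex, at 1.59 and 1.56 times.

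Klrg1, a receptor of effector-type Treg cells, came with less Bmyc. Bmyc had 124.9 against 159.9 CPM in lymph node, a ratio of 0.781 (0.640 to 0.945). In spleen it had 68.5 against 149.4 CPM, a ratio of 0.459 (0.356 to 0.582). Thinned to 1200 UMIs per cell, the lymph node ratio of Bmyc was 0.961, close to level. Over the settings used, its spleen ratio ran from 0.341 to 0.568. Myc had 16.6 against 32.02 CPM in lymph node (15 UMIs with Klrg1), a ratio of 0.518 (0.287 to 0.865), but 33.3 against 38.2 CPM in spleen (34 UMIs), a ratio of 0.872 (0.598 to 1.23). Thinned to 1200 UMIs per cell the lymph node ratio of Myc was 0.853, and its spleen ratio was 1.27, on the other side of 1. Of 8 members counted, 0 were past the fold in both libraries, beside 7.01% of 6688 genes higher and 4.04% lower. In Foxp3-only cells Myc had 12.9 CPM with Klrg1 against 44.1 CPM without in lymph node, while spleen had 26.4 against 53.2 CPM, and Bmyc had 116.4 against 175.7 CPM and 49.5 against 132.3 CPM. Mxd4 was at 1.37 times in lymph node (1.17 to 1.59) and 1.07 times in spleen (0.912 to 1.25), and Mlx at 1.30 and 1.32 times. Klrg1 cells were deep, at a median of 3209 and 3384 UMIs against 1991 and 1907, and their cycling markers summed to 860.1 and 1105.5 CPM, against 268.3 and 162.7 CPM. Ribosomal and mitochondrial genes took 30.1% and 27.5% of their UMIs, against 36.9% and 36.2%, so scaling without these genes moves the log2 ratios by -0.15 and -0.18, and Mxd4 in spleen is then on the other side, at 0.943 times. MYC targets had medians of -0.21 and -0.04, with Srm the 1 of 36 past the fold, at 0.511 and 0.666 times.

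Ly6c1, a surface antigen of the Ly6 family, came with less of both most counted members. Bmyc had 107.4 against 168.2 CPM in lymph node, a ratio of 0.638 (0.557 to 0.730), and 94.1 against 157.0 CPM in spleen, a ratio of 0.599 (0.530 to 0.675). Mxd4 had 111.3 against 164.5 CPM, a ratio of 0.676 (0.591 to 0.772), and 107.9 against 169.2 CPM, a ratio of 0.638 (0.569 to 0.713). Bmyc was the 1 of 9 members past the fold in both, with Mxd4 just short of it in lymph node, beside 4.45% of 8847 genes lower and 0.26% higher. Mxd1 was on the other side, at 1.68 times (1.26 to 2.21) in lymph node and 1.21 times (0.915 to 1.59) in spleen. Myc had intervals that include 1, at 0.852 times (0.639 to 1.12) and 1.03 times (0.839 to 1.25). Cells with Ly6c1 also had less Tnfrsf9, 73.3 against 153.9 CPM in lymph node, with 65.0 against 161.8 CPM in spleen. Among cells with a Foxp3 or ICRE UMI the Bmyc ratio was 0.743 and 0.863, and among cells with at least 1000 genes and at most 5% mitochondrial UMIs 0.763 and 0.701, each short of 1.5-fold.

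Myc UMIs were spread thinly over cells. In lymph node 294 cells held the 404 UMIs, and the 25 cells with 3 or more held 21.8% of them. In spleen 36 such cells held 21.0%. Cells with 3 or more held 30.4% and 33.2% of the UMIs of Bmyc, up to 18 in a lymph node cell and 20 in a spleen cell, and 31.7% and 25.2% of those of Mxd4, a share that also goes with a gene's level. At 1200 UMIs per cell the variance over the mean was 1.57 and 1.61 for Bmyc, 1.17 and 1.17 for Myc, 1.16 and 1.15 for Mxd4, and 0.976 and 0.984 for Max, where 1 is counting noise. At that depth a Bmyc UMI was found in 15.7% of cells from lymph node and 14.2% from spleen (unthinned 27.6% and 23.6%), in 14.2% and 16.1% for Mxd4, in 10.2% and 11.4% for Max and in 2.93% and 3.39% for Myc.

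Set against cells with none, a contrast chosen after the values were seen, cells with a Myc UMI had no other member past the fold in both libraries. Max was at 1.16 times in lymph node and 1.10 times in spleen, Bmyc at 0.995 and 0.890 times, and Mxd4 at 0.840 and 0.993 times. Mga was at 0.698 times in lymph node (0.482 to 0.982) and 0.930 times in spleen, and Mlx at 0.890 times in lymph node and 0.764 times in spleen (0.586 to 0.983). Mxd1 was at 0.857 and 0.694 times, Mnt at 1.16 and 0.731 times and Mxi1 at 0.901 and 1.16 times, with intervals that include 1. ICRE was at 0.134 and 0.283 times and Ly6c1 at 0.572 and 0.578 times in these cells. Of 37 MYC targets, 27 were past the fold in both libraries, with medians of 0.81 and 0.75 beside -0.11 and -0.08 for all genes, and beside 2.12% of 7814 genes higher and 2.43% lower. Srm had 100.7 against 29.97 CPM in lymph node, with 97.7 against 36.4 CPM in spleen. Txnip was at 0.535 and 0.597 times, and Cdkn1b, a cell cycle inhibitor that MYC represses, at 0.530 and 0.643 times. Cells with a Myc UMI were deep, at a median of 3277 and 3194 UMIs against 1970 and 1879. With weights for UMIs per cell 3 of 37 targets were past the fold, with medians of 0.38 and 0.43, beside 0.474% of all genes. Without cells with markers of other types 9 were, beside 1.38%.

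**Figure D5:**
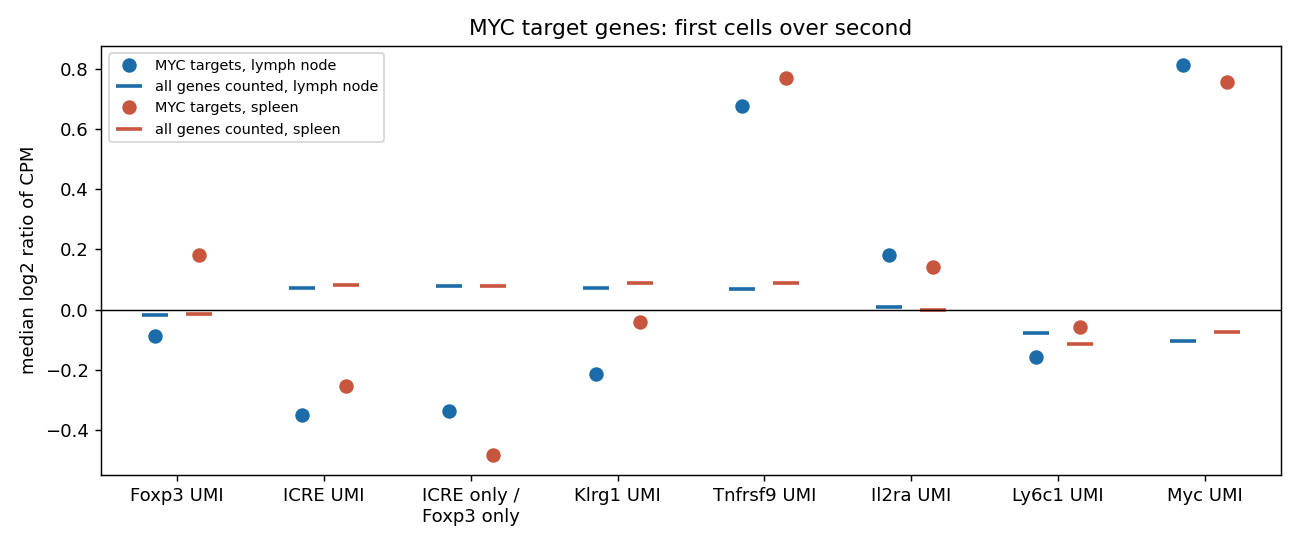
Median log2 ratio of CPM over the MYC targets counted (points) and over all genes counted (dashes) in each contrast and library. The points stand highest for Tnfrsf9, at 0.68 and 0.77, and for a Myc UMI, at 0.81 and 0.75, and lowest in the ICRE contrasts.

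Few genes of the proteins that work with the network were past the fold. Per contrast and direction 0.26% to 7.01% of all genes counted were, so lists this short hold few calls in any case. Of 12 MYC cofactors, 0 were past the fold in any of these contrasts, with 9 to 12 counted. Of 10 corepressors of the MXD and MNT proteins, Rbbp7 was past it by Tnfrsf9 and 0 were in the other contrasts. Of 9 genes of the MGA complex, Tfdp1 was the 1 past the fold, lower with ICRE at 0.286 and 0.563 times, lower in ICRE-only cells at 0.234 and 0.286 times, and higher with Tnfrsf9 and with a Myc UMI. Of 10 genes that set MYC stability, Aurka was higher with Foxp3, Tnfrsf9 and Il2ra and lower with Ly6c1, at 0.594 and 0.630 times, and Usp28, a deubiquitinase of MYC, was higher with Foxp3. Mxd3 was higher with Foxp3, at 2.03 and 3.34 times, and with Tnfrsf9, at 1.65 and 1.63 times. Aurka, Tfdp1 and Mxd3 are known to go with the cell cycle, and the cycling markers also differed by Foxp3, Tnfrsf9 and Il2ra and in ICRE-only cells. In lymph node they summed to 661.8 CPM with 1 or 2 Myc UMIs and 483.8 CPM with 3 or more, against 269.8 CPM with 0. The spleen values were 247.6 and 43.6 CPM, against 219.4 CPM. The part of the cell cycle in the values of these genes was not tested.

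Co-detection of members in single cells gave no clear pairs. At 1200 UMIs per cell, 20 of 45 pairs had at least 10 expected double-positive cells in both libraries, 6 were above expectation in both and 4 below in both, with ratios from 0.696 to 1.58 and medians of 1.05 and 1.03. Bmyc and Mxd4 were found together in 127 lymph node cells where 101.3 were expected from their single shares, and in 155 spleen cells where 137.4 were expected. Myc and Max were found together in 18 cells where 13.7 were expected, and in 28 where 23.3 were. Another random thinning left 2 pairs above and 3 below in both libraries, so the pairs depended on the draw. Myc with ICRE was seen in 1 cell where 7.74 were expected in lymph node and in 4 where 12.2 were in spleen, while Bmyc with Tnfrsf9 was seen in 138 where 85.8 were expected and in 193 where 94.8 were.

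Over 14 log2 ratios (7 contrasts in 2 libraries), the genes most like Myc among 5541 with at least 500 UMIs were Eif3e (r = 0.96), Sp140 (0.95), Rpl29 (0.93), Rpl7a (0.92) and Rpl3 (0.92), of which Eif3e encodes a translation initiation subunit and the Rpl genes encode ribosomal proteins. Those most like Mxd4 were Cers4 (0.93), Pqlc3 (0.91), Serhl (0.91), Spty2d1 (0.91) and Yipf1 (0.90). Myc itself had r = -0.66 with Mxd1 and -0.09 with Bmyc. The ratios share cells and libraries, so these values are descriptions.

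By GENCODE M21 on GRCm38, Myc lies at chr15:61985391-61990374 (plus strand) and Bmyc at chr2:25706739-25707721 (plus strand). The 3' ends of these 2 genes share no 31-base stretch with another gene's, so their counts cannot have been exchanged through such a stretch. Bmyc overlaps A230005M16Rik on the other strand, Mlx overlaps Psmc3ip, Mxd4 overlaps Gm42846 and Mxi1 overlaps Gm10197. Max shares stretches with 8 predicted genes and lies over Gm47218 on the same strand, Mga shares repeat-like stretches with 34 genes, Mxi1 shares some with Gm13735, and Mxd1 overlaps Gm44292 on the same strand, so the levels of Max, Mga, Mxi1 and Mxd1 are uncertain to that extent.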

How the data were processed

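Single-cell libraries (10x 3' chemistry), 1 of lymph node and 1 of spleen, were deposited by the authors as raw UMI counts per gene and barcode, made with Cell Ranger 3.0.1 on mm10, per the submitters' processing notes. The 4820 and 6543 cells used had at least 500 genes and up to 10% of UMIs from mitochondrial genes, and doublets were not called. UMIs were summed over cells and scaled to 1000000 UMIs in the group (CPM). Intervals were exact Poisson for levels, exact conditional for ratios and Clopper-Pearson for shares. The ratio intervals were run on simulated Poisson counts, and the share intervals were not simulated. Those counts hold no extra spread between cells, as was seen for Bmyc, so the simulation cannot show how well the intervals cover such genes. A gene was counted where at least 10 UMIs were expected in the smaller group, and called where its ratio passed 1.5-fold the same way in both libraries, a rule that needs both rather than each library as first planned. List genes named per contrast are taken from the 3 with the largest mean absolute log2 ratio among those counted with the same sign in both libraries, and other names follow counts of calls. Co-detection used cells thinned to a common 1200 UMIs, so 252 shallower cells of lymph node and 525 of spleen were not used there. The members and lists were chosen with earlier results of these data known. With 1 library per tissue no test across samples exists. Python 3.11.15, numpy 2.4.6, scipy 1.17.1 and pandas 2.3.3 were used.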

Additional observations from a re-analysis of the deposited data

How the results depend on the processing

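Each ratio was recomputed under other settings, and of 1461 values for 129 member ratios 1331 stayed within the counting interval and 130 moved. For Myc and the members past the fold the following moved. With cells of at least 1000 genes and at most 5% mitochondrial UMIs, Myc by Foxp3 in spleen was 1.10 and Bmyc by Ly6c1 0.763 in lymph node and 0.701 in spleen. With gates at 2 UMIs, in lymph node and spleen, Myc by Il2ra was 2.31 and 2.06, Myc by Tnfrsf9 1.57 and 1.53, Bmyc by Ly6c1 0.534 and 0.515 and Bmyc by Tnfrsf9 2.87 and 3.41. With gates on thinned UMIs, Myc in spleen was 0.236 by ICRE, 0.144 for ICRE-only and 1.22 by Il2ra, and Bmyc by Tnfrsf9 was 2.47 and 2.94. As means of per-cell CPM, Myc by Foxp3 was 1.85 and 1.86, Bmyc by Ly6c1 0.547 and 0.511 and Bmyc by Tnfrsf9 2.37 and 2.88. Thinned to 1200 UMIs, Myc by Foxp3 was 2.17 and 2.14, Bmyc by Tnfrsf9 2.38 and 2.79, Bmyc by Ly6c1 in lymph node 0.507, and Myc in spleen 1.27 by Klrg1 and 0.720 by Ly6c1, where it took the other side of 1. Weighted to the same UMIs per cell, Myc by Foxp3 in spleen was 1.14 and Bmyc by Tnfrsf9 2.36 and 2.92. Within cells with a Foxp3 or ICRE UMI, Myc by Klrg1 in spleen was 0.570, Bmyc by Ly6c1 0.743 and 0.863 and Bmyc by Tnfrsf9 1.92 and 2.17. Bmyc by Tnfrsf9 in lymph node was 2.31 without Mki67 or Top2a cells and 2.33 without cells with markers of other types. Bmyc by Ly6c1 in spleen was 0.529 without cells with markers of other types. Without the 5% of cells with the most UMIs, Bmyc by Tnfrsf9 was 2.44 and 2.82 and Myc by Foxp3 in spleen 1.75. MYC targets past the fold were also counted in alternatives, chosen after the data were seen except the 2-fold rule. At 2-fold they numbered 1 for ICRE, 1 for ICRE-only and 4 for Tnfrsf9. In the same order they numbered 0, 1 and 11 weighted to UMIs per cell (3 for a Myc UMI), and 2, 5 and 16 without Mki67 or Top2a cells. Without cells with markers of other types they numbered 1 for ICRE, 9 for Tnfrsf9 and 9 for a Myc UMI. Scaled without ribosomal and mitochondrial genes they numbered 9 for ICRE. The cause was not tested. No paired analysis was possible because each tissue is 1 library, and none could be left out. Mycn, with 4 UMIs in all, is at the limit of depth, and ICRE-only Myc in lymph node rests on 3 UMIs.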
